A study of Mus musculus with 16 samples.

Results

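MicroRNA (miRNA) levels in the liver of untreated wild-type mice were described from 4 of the 16 arrays of the study, those titled WT_H2O_1 to WT_H2O_4 and called arrays 1 to 4 here. The features described were the 611 mouse miRNA features of the 650 on the array, chosen by the mouse prefix of their names, and the other 39 were viral. The mice were male C3H, wild type (WT) for Ctnnb1, and were kept for 12 weeks as controls at a dose of 0%. The labels call the control agent water, whereas the treatment protocol describes a diet without phenobarbital. The other arrays were used only to set the background level, and they came in 3 groups of 4 male C3H mouse livers: WT with 0.05% phenobarbital in the diet for 12 weeks, and CTNNB1KO livers with and without that diet. CTNNB1KO mice lack Ctnnb1 in hepatocytes through floxed alleles and a Cre recombinase driven by the albumin promoter, and both lines had been backcrossed for 5 generations into C3H/N. The labels give no age, and do not say whether the WT mice carried a floxed allele or Cre. They also leave unstated whether every array holds another animal, and the p-values here reflect only how these samples scatter, which may be technical.

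A miRNA is a short RNA cut from a hairpin precursor and loaded into an Argonaute protein, where it pairs with messenger RNAs mainly through its seed, bases 2 to 8 from its 5′ end, and lowers their translation and stability. Each hairpin has a pair of arms, and usually 1 arm is kept as the main product while the opposite arm, marked by an asterisk in the names used on this array, is mostly degraded. miRNAs with the same seed form a family with overlapping targets. In liver, hepatocytes make up most of the tissue mass and are known for a very high level of miR-122, a regulator of cholesterol and lipid metabolism, while blood cells, endothelium, stellate cells and bile ducts bring miRNAs of their own. In RNA from whole tissue, fewer cells of a type and less RNA per cell cannot be told apart.

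The mature sequences of 94 of the 115 features that lay above the background level were found in RefSeq (GRCm38.p6), and those shown here are some of the brightest of them and their close relatives, of which miR-215 and miR-17 were below that level. All are printed 5′ to 3′ with the seed in capitals. The let-7 family comes first, with 2 bright and 2 dim members that share a seed:
let-7f: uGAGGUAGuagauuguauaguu
let-7a: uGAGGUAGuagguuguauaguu
miR-98: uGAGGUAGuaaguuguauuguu
let-7e: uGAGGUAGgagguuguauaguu
The next sequences are bright miRNAs, each followed by a close relative with the same seed and a lower value:
miR-192: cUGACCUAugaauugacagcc
miR-215: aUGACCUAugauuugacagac
miR-148a: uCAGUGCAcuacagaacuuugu
miR-148b: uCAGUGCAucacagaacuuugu
miR-29a: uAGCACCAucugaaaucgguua
miR-29c: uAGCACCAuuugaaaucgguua
miR-30a: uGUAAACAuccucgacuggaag
miR-30e: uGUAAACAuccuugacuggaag
miR-20a: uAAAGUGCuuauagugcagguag
miR-17: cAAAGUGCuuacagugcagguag
The remaining sequences are bright miRNAs with seeds of their own and the asterisk arms of miR-22 and miR-30a:
miR-21: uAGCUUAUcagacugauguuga
miR-451: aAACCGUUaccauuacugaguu
miR-126-3p: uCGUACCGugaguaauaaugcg
miR-22: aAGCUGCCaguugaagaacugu
miR-22*: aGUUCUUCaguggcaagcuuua
miR-30a*: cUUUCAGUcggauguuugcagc

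In GRCm38.p6, miR-21 lies at chr11:86584120-86584141 on the minus strand, miR-22 at chr11:75463772-75463793 on the plus strand and miR-451 at chr11:78073186-78073207 on the plus strand. The mature miR-192 is at chr19:6264857-6264877 and miR-215 at chr1:185313610-185313630, both on the plus strand. let-7f is encoded at chr13:48537889-48537910 on the minus strand and at chrX:151912353-151912374 on the plus strand. let-7e is at chr17:17830366-17830387 on the plus strand.

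Most mouse miRNA features read at the level of the viral features, and a small bright set stood far above it. The floor, the 0.95 quantile of the mean log2 values of the 39 viral features over the 16 arrays, was 3.98. The viral means ran from 3.15 to 4.60 with a median of 3.23, and the median of the 611 mouse means in the 4 WT arrays was 3.34. The mean of the 4 arrays lay above the floor for 115 of the 611 mouse features, or 18.8%. It was at least 8 for 34 features and at least 10 for 15. All 4 arrays lay above the floor for 100 features, or 16.4%. By limma, with the floor taken as fixed and Benjamini-Hochberg adjustment over the 611 features, 102 features (16.7%) were above it at an adjusted p under 0.05. The 13 features whose mean was above the floor but that did not pass were miR-455, miR-142-5p, miR-340-5p, miR-425, miR-212, miR-125a-5p, miR-690, miR-1897-5p, miR-31*, miR-500, miR-29c*, miR-1187 and miR-200a. Just above the floor were miR-29c* at 4.01, then miR-1187, then miR-200a at 3.99, and just below it miR-378* at 3.97, miR-33 at 3.95 and miR-30c-2* at 3.93. Array by array, between 114 and 118 mouse features lay above the floor, and the array medians ran from 3.35 to 3.37. Each feature has its own probe and probes differ in response, so an order of features is an order of array values and not of molecules per cell.

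**Figure D1:**
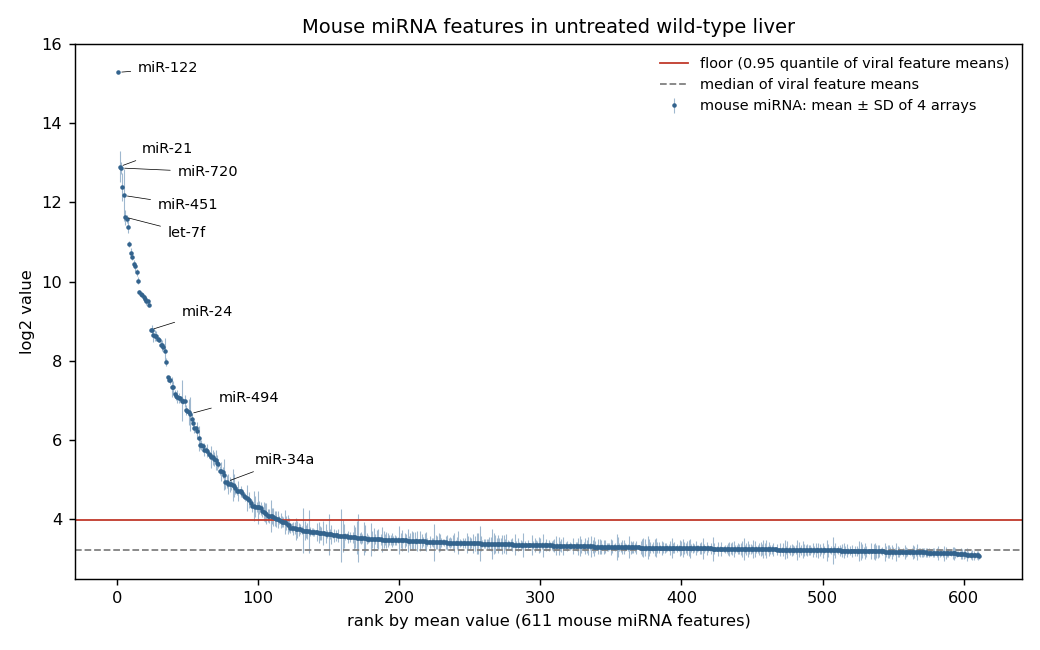
Mean log2 value of each of the 611 mouse miRNA features (points, bars ± SD of the 4 WT control arrays) against its rank by mean. The red line is the floor at 3.98 and the dashed line the median of the viral means at 3.23. The values fall from 15.28 at rank 1 to the floor within the 115 brightest features and then stay near the viral median.

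The brightest feature was miR-122, the defining hepatocyte miRNA, at 15.28 on each of the 4 arrays. This was also the highest value on every one of these arrays, so its SD of 0 is no measure of its spread. Whether a limit of the scale or the normalisation fixed this value was not tested, and differences from miR-122 are given as differences of array values only. Its value was 11.30 above the floor. miR-21, which is widely expressed and targets Pdcd4, came next at 12.93, 13.24, 13.10 and 12.35 on arrays 1 to 4 (mean 12.90 ± 0.39, SD, n = 4). Arrays 1 to 3 were close and array 4 was the lowest. miR-720, a name later withdrawn from the miRNA catalogue as a tRNA fragment, read 12.85, 13.07, 12.87 and 12.69 (12.87 ± 0.15). The values of miR-21 and miR-720 overlapped, and miR-21 was the higher on 3 of 4 arrays. miR-22, a broadly expressed miRNA, read 12.23, 12.77, 12.56 and 11.99 (12.39 ± 0.35), again lowest on array 4.

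miR-451, a red blood cell miRNA that is cut by Argonaute 2 instead of Dicer, held the fifth place with 11.46, 12.46, 12.94 and 11.84 (12.18 ± 0.66, n = 4). Its arrays lay far apart, with array 3 highest and array 1 lowest. let-7f read 11.52, 11.83, 11.74 and 11.42 (11.63 ± 0.19), and let-7a read 11.26, 11.59, 11.37 and 11.27 (11.37 ± 0.15). Both are members of the let-7 family, known for repressing Lin28 and Hmga2, and both were highest on array 2. miR-192, a liver, gut and kidney miRNA, read 11.49, 11.69, 11.65 and 11.50 (11.58 ± 0.10). miR-29a, which targets collagen messenger RNAs, read 10.85, 11.03, 10.97 and 10.96 (10.95 ± 0.07). The same 10 features made up the top 10 on all 4 arrays, and let-7g completed that set at 10.72 ± 0.12.

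Ranks 11 to 30 covered a mean log2 value of 10.62 down to 8.54. miR-148a, which targets Dnmt1 and is abundant in hepatocytes, read 10.60, 10.71, 10.56 and 10.61 (10.62 ± 0.07). After it came let-7c at 10.44 ± 0.10, let-7b at 10.38 ± 0.12 and miR-29c at 10.23 ± 0.08. miR-126-3p, encoded within the endothelial gene Egfl7, had a lowest array of 9.92, a median of 10.02 and a highest of 10.16 (10.03 ± 0.10), with array 4 highest. miR-26a and miR-26b, a pair sharing a seed, were close to each other at 9.69 ± 0.02 and 9.67 ± 0.02. The other ranks were held by miR-29b, let-7d, miR-30a, miR-15a, miR-130a, miR-194, miR-24, miR-101b, miR-19b, miR-23b, miR-16, miR-101a and miR-365, between 9.75 and 8.54. Of the 30 features, 29 were in the top 30 on all 4 arrays.

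Many neighbours in this order had overlapping ranges. Among the 29 neighbouring pairs of the top 30, the ranges of the 4 arrays overlapped in 24 and stayed apart in 5. The 5 separate steps were miR-122 over miR-21, with a mean difference of 2.38 that rests on the identical values of miR-122, let-7a over miR-29a, miR-126-3p over miR-29b, miR-29b over miR-26a, and miR-194 over miR-24. The order of the pair was the same on all 4 arrays in 15 of the 29, some of them with overlapping ranges. For example, miR-29c was above miR-126-3p by 0.21 ± 0.02 (SD of the differences within arrays, n = 4). At the other end, miR-24 and miR-101b differed by 0.00 in their means.

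Shared seeds were common in the bright set. The 94 features with a sequence held 64 seeds, and 14 of these were shared by at least 2 features, 44 features in all. A further 21 features above the floor had no matched sequence. Among them were miR-23b, miR-30b and miR-30d, so these counts leave out some relatives of matched features. The 27 of the top 30 with a sequence held 18 seeds. A 5′ uridine, the base known to be favoured by Argonaute proteins, was the first base of 57 of the 94 sequences (60.6%) and of 21 of those 27. In all 1679 mature mouse names of the RefSeq table the share was 40.9%. Those names include opposite arms and miRNAs that are not on this array. The share among array features below the floor was not computed, so the gap cannot be read as a trait of bright miRNAs.

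The let-7 family was above the floor throughout, with 9 of 9 members and a median of the means of 10.38. Over all mouse features 18.8% were above the floor and the median was 3.34, the background for this and the following family counts. The families were chosen with earlier results of these data known. let-7d was at 9.61 ± 0.05 and let-7i at 8.36 ± 0.06. The dimmest were miR-98 at 5.86 ± 0.08 and let-7e, which read 5.73, 5.61, 5.31 and 5.44 (5.52 ± 0.19). These last were chosen after their values were seen. let-7a was above let-7e by 5.85 ± 0.23 (SD of the differences within arrays, n = 4) on every array, although their sequences differ only by U9G, with positions counted from 1 at the 5′ end and the base of the member named first given first. let-7a and let-7f also differ by 1 base, G12A, and let-7f was above let-7a on all 4 arrays by a mean of 0.26. How far a probe also binds a close relative of its target was not tested.

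The miR-29 family, known for repressing collagen and other matrix genes, had 3 of 3 members above the floor and a median of 10.23. miR-29a was above miR-29c by 0.72 ± 0.08 on all 4 arrays, and the 2 sequences differ by C10U. miR-29b read 9.75 ± 0.04. The miR-30 family, broadly expressed and abundant in epithelial tissues, had 5 of 5 members above the floor and a median of 7.52. miR-30a stood alone at 9.67, 9.50, 9.48 and 9.62 (9.57 ± 0.09), above miR-30e by 2.05 ± 0.12 on all 4 arrays with the change C13U between them. The other members, miR-30c, miR-30e, miR-30b and miR-30d, were between 6.75 and 7.52.

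The miR-15/16 family, regulators of the cell cycle through cyclins and Bcl2, had 6 of 6 members above the floor, from miR-15a at 9.52 ± 0.10 and miR-16 at 8.63 ± 0.12 down to miR-322 at 4.56 ± 0.10. The miR-23, miR-24 and miR-27 families are cut from 2 shared clusters. miR-23b read 8.64 ± 0.13 and miR-23a 8.41 ± 0.09, while miR-24, which both clusters encode, read 8.80, 8.78, 8.78 and 8.78 (8.78 ± 0.01). miR-27b was at 7.16 and miR-27a at 6.99, with miR-27a the higher on 1 of 4 arrays. The miR-27 pair therefore showed no order beyond its spread, and its sequences differ by 1 base.

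The family of miR-17, miR-20a, miR-20b, miR-93 and miR-106b, products of the oncogenic miR-17-92 cluster and its paralogs, had 4 of 5 members above the floor. miR-20a read 6.97, 7.06, 7.02 and 7.34 (7.10 ± 0.16), and miR-17, singled out after its value was seen, read 3.38, 3.37, 3.43 and 3.22 (3.35 ± 0.09). The pair differed by 3.75 on average and did not overlap, and from miR-17 to miR-20a the sequence changes by C1U and C12U. In the same cluster, miR-19b was at 8.65 ± 0.16 and miR-19a at 5.87 ± 0.13, with 1 base between them. Of the related miR-25/32/92 family 2 of 5 members were above the floor (18.8% over all mouse features), miR-92a at 7.96 ± 0.11 and miR-25 at 5.66 ± 0.08.

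Array values of close relatives also lay apart in smaller families. miR-192 and miR-215, which share a seed and differ by C1A, A12U and C20A, were 8.39 ± 0.21 apart, the latter reading 3.07, 3.18, 3.11 and 3.41. All 4 values of miR-215 were below the floor. miR-148a was above miR-148b by 6.11 ± 0.08 with the changes C9U and U10C, and miR-152 of the same family was at 4.95 ± 0.19. miR-130a, a miRNA known from blood vessels, read 9.51 ± 0.05 and was above miR-130b by 6.22 ± 0.09 with 2 bases between them. In each of these pairs the first was higher on 4 of 4 arrays.

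Smaller gaps were seen for miR-10a over miR-10b, encoded in the Hox clusters, at 2.58 ± 0.25, and for miR-99a over miR-100 at 2.28 ± 0.05. miR-107 was above miR-103 by 1.34, and these miRNAs, encoded in pantothenate kinase genes, are known for a part in insulin sensitivity. Each of these pairs differs by 1 base. Some families had at most 1 member above the floor, where the share over all mouse features was 18.8%. miR-181 had 0 of 4 members above it, with a median of 3.53. The family of miR-130 and miR-301 had 1 of 4 and that of miR-221 and miR-222 had 1 of 2, with miR-221 at 5.41 ± 0.12. Of the p53-responsive miR-34 family 1 of 5 was above the floor, a share near that of all mouse features. This was miR-34a, at 5.02, 4.73, 4.95 and 5.11 (4.95 ± 0.16). Whether counts in families this small differ from the share over all mouse features was not tested.

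**Figure D2:**
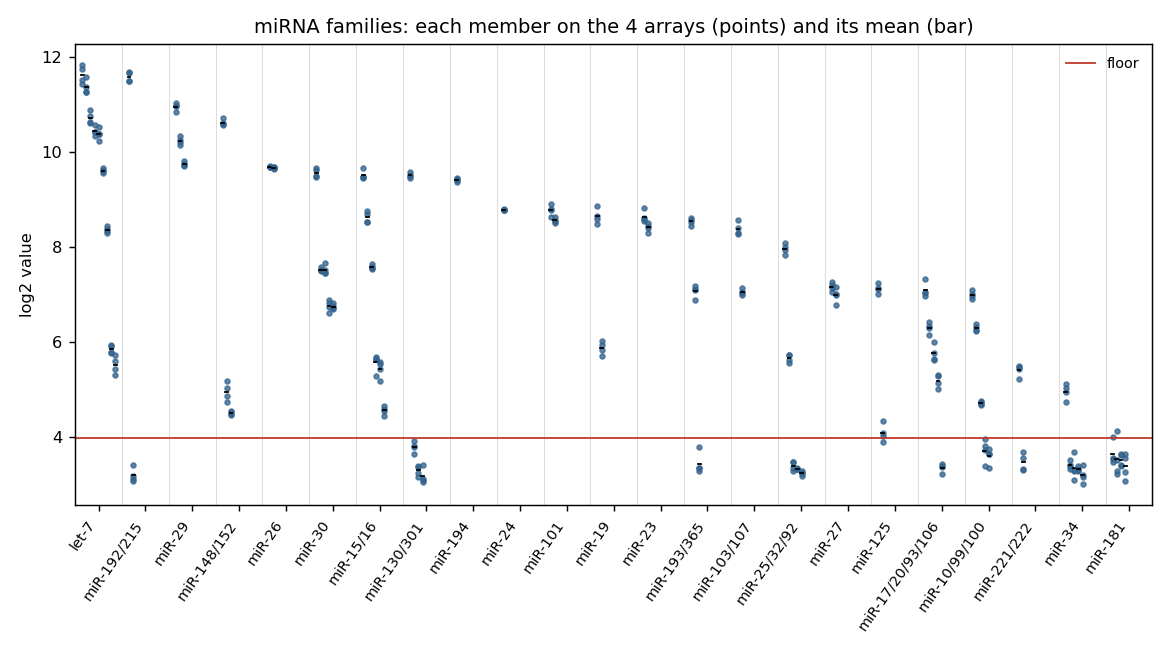
Log2 value of every member of 23 miRNA families on the 4 WT control arrays (points) with the mean (bar); families are separated by thin lines and ordered by their brightest member, and the red line is the floor at 3.98. All 9 let-7 members are above the floor, while the dim relatives miR-215 (3.20), miR-130b (3.29) and miR-17 (3.35) are below it.

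Members of 1 hairpin cluster ranged from nearly equal to widely unequal array values. Hairpins on 1 strand within 10 kb of each other were grouped, which gave 28 clusters with a feature above the floor. In 19 of them at least 2 features were above it. The grouping was incomplete. It left out miR-15a with miR-16 on chromosome 14, miR-195 with miR-497 on chromosome 11, and miR-92a beside miR-17. The counts and the median therefore describe only the clusters that were formed. The median difference between the highest and lowest mean in these 19 was 2.02. Among the close ones, miR-30c and miR-30e, which share a cluster on chromosome 4, were both at 7.52, and let-7c and let-7b on chromosome 15 differed by 0.06. The hairpins of miR-144 and miR-451 span 237 bases (chr11:78073005-78073241), and miR-451 was 4.84 above miR-144. miR-194 and miR-192 share a cluster of 290 bases (chr19:6264643-6264932), with miR-194 at 9.43, 9.46, 9.42 and 9.37 (9.42 ± 0.04), 2.16 below miR-192. A second miR-194 hairpin lies beside miR-215 in a cluster of 374 bases (chr1:185313319-185313692), where miR-215 was below the floor. The array cannot tell which hairpin gave the shared miR-194. Likewise let-7f, which is also encoded beside miR-98 on chromosome X, was 5.77 above miR-98. In the cluster of miR-193b and miR-365 on chromosome 16, miR-365 read 8.54 ± 0.07 and miR-193b 3.44 ± 0.23, and miR-365 has a further hairpin outside it.

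Asterisk arms were seldom above the floor. Of the 115 features with an asterisk, 7 had a mean above the floor (6.09%), against 108 of the 496 without one (21.8%). Both arms were on the array for 112 hairpins, and at least 1 arm was above the floor in 45 of them. In 39 the main arm alone was above it, in 6 both arms were, and in 0 the asterisk arm alone. The main arm was brighter on all 4 arrays in each of the 45, by a median of 4.21. The widest difference was 9.49, between miR-21 and miR-21*, which read 3.41 ± 0.07. Since the names record which arm was taken as the main product when the array was designed, the direction was in part fixed by the names.

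The brightest asterisk arm was that of miR-22, whose sequence is shown above, at 5.96, 5.82, 6.00 and 5.77 (5.89 ± 0.11). It was 6.50 ± 0.33 below its main arm. miR-30a* read 5.24, 5.21, 5.37 and 5.10 (5.23 ± 0.11), 4.34 ± 0.18 below miR-30a. The arms of miR-140, best known from cartilage, were the closest: miR-140 read 5.63, 5.64, 5.64 and 5.54 and miR-140* read 5.39, 5.17, 5.40 and 4.89, a difference of 0.40 ± 0.20 in favour of the main arm on every array. The other hairpins with both arms above the floor were miR-30e, with a difference of 3.10 ± 0.19, miR-31 with 2.18 ± 0.16 and miR-29c with 6.23 ± 0.15. miR-31* and miR-29c* did not pass limma (adjusted p = 0.45 and 0.8). The seventh asterisk feature above the floor, miR-199b*, had no partner on the array under its name. Of the 20 hairpins with a main arm of at least 8, 3 had an asterisk arm above the floor.

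Hairpins named by 5p and 3p have no named main arm, and the arm with the higher mean was taken first, so its direction was fixed by this choice. Of 65 such pairs, 15 had an arm above the floor and 3 had both. miR-126-3p exceeded miR-126-5p, which read 4.64, 4.75, 4.69 and 4.62, by 5.35 ± 0.13. For miR-142, a miRNA of blood cells, the 3p arm exceeded the 5p arm by 3.14 ± 0.15, and for miR-199a, a mesenchymal miRNA, by 2.09 ± 0.14.

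**Figure D3:**
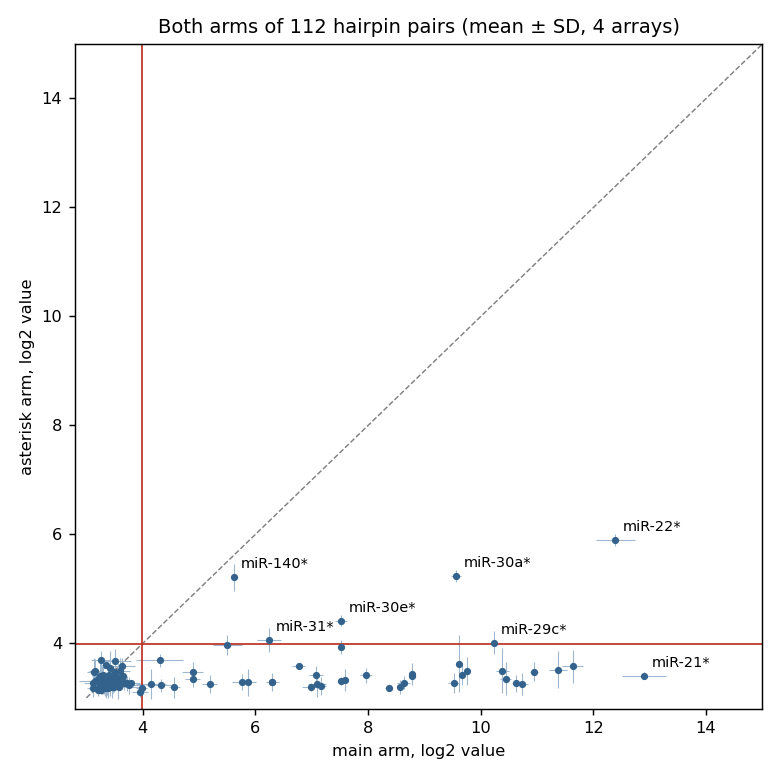
Mean log2 value of the asterisk arm against that of the main arm for the 112 hairpins with both on the array (points, bars ± SD of 4 arrays). Red lines mark the floor at 3.98 on both axes and the dashed line equal values. The points with a bright main arm lie far under the dashed line, and of those with an arm above the floor miR-140 comes nearest to it.

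Hepatocyte miRNAs were present throughout. All 13 of the list had a mean above the floor and 12 of them were above it by limma (18.8% and 16.7% over all mouse features). Their median was 8.56 beside 3.34 for all mouse features. Besides miR-122, miR-22, miR-192, miR-148a and miR-194, the list held miR-101b at 8.78 ± 0.11 and miR-101a at 8.56 ± 0.05, which repress Ezh2. miR-107 read 8.58, 8.29, 8.28 and 8.41 (8.39 ± 0.14) and miR-193 read 7.18, 7.12, 7.10 and 6.89 (7.07 ± 0.13). miR-802 read 5.79, 5.18, 5.60 and 5.73 (5.57 ± 0.27), and miR-378, encoded in the Ppargc1b gene, 5.80, 5.58, 5.45 and 5.19 (5.50 ± 0.25). The member that did not pass was miR-455, at 4.49, 4.55, 4.49 and 3.68 (4.30 ± 0.42, limma adjusted p = 0.0668). Only array 4 was below the floor. The list was drawn from miRNAs known to be abundant in liver, with earlier results of these data known, and it holds the broadly expressed miR-22. Its count was therefore in large part fixed by the choice of members and does not test the tissue label.

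Blood cell miRNAs were also measured in this whole-tissue RNA. All 3 erythroid miRNAs were above the floor, miR-451 at 12.18, miR-144 at 7.02, 7.38, 7.64 and 7.30 (7.33 ± 0.26) and miR-486 at 4.14, 4.47, 4.81 and 3.94 (4.34 ± 0.38, limma adjusted p = 0.0367). Array 3 was the highest for each of the 3. miR-486 was below the floor on array 4. Of 11 leukocyte miRNAs 4 were above the floor and 3 by limma, where the shares over all mouse features were 18.8% and 16.7%, and the median of the list was 3.49. miR-142-3p, made in all blood cell lineages, read 7.35, 7.53, 7.30 and 7.15 (7.33 ± 0.15). miR-223, a miRNA of neutrophils and other myeloid cells, read 6.37, 6.25, 5.72 and 5.83 (6.04 ± 0.32), with arrays 1 and 2 above arrays 3 and 4. miR-146a was at 4.72 ± 0.10 and miR-142-5p at 4.19 ± 0.24 (adjusted p = 0.0733). The lymphocyte miRNAs miR-150 at 3.33 and miR-155 at 3.49 were below the floor.

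Vessel and connective tissue miRNAs were divided. Both arms of the endothelial miR-126 were above the floor. Of the 9 stellate or mesenchymal miRNAs measured, 3 were above it (18.8% over all mouse features), and the median was 3.72. miR-199a-3p read 6.47, 6.52, 6.29 and 6.44 (6.43 ± 0.10), and miR-199a-5p was at 4.34 ± 0.16. miR-143, a smooth muscle miRNA, read 4.80, 5.26, 4.79 and 4.57 (4.85 ± 0.29), whereas miR-145, encoded beside it, was at 3.24. miR-214, cut from the same transcript as miR-199a, was at 3.75. miR-10b read 3.38, 3.95, 3.81 and 3.72 (3.72 ± 0.24), below the floor on every array.

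Of 11 miRNAs of bile ducts or other epithelia, 3 had a mean above the floor and 2 by limma (18.8% and 16.7% over all mouse features), with a median of 3.59. miR-31 was the brightest at 6.41, 6.34, 6.27 and 5.93 (6.24 ± 0.21), and miR-203, a skin miRNA, was at 4.89 ± 0.14. The miR-200 family, which maintains epithelial identity by repressing Zeb1 and Zeb2, lay close to the floor or below it. miR-200a ran from 3.86 on array 2 to 4.10 on array 1 (3.99 ± 0.10, limma adjusted p = 0.995), miR-200b was at 3.79, miR-429 at 3.68, miR-141 at 3.50 and miR-200c at 3.31. Its members nearest the floor were miR-200a and miR-200b, which come from 1 cluster with miR-429.

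miRNAs of tissues other than liver were mostly at the background level, as were most mouse features. None of 7 striated muscle miRNAs had a mean above the floor (0 of 7, range 3.15 to 3.46), beside 18.8% of all mouse features. The most abundant miRNA of heart and skeletal muscle, miR-1, read 3.61, 3.41, 3.63 and 3.17. None of 14 embryonic stem cell miRNAs was above the floor (0 of 14), the highest being miR-290-5p at 3.69. The 13 X-linked testis miRNAs had none above it either (0 of 13), with a highest mean of 3.34. Of the 5 pancreas miRNAs only miR-7a was above the floor, a share near the 18.8% of all mouse features, at 4.89 ± 0.19, while miR-375, of pancreatic islets, was at 3.19. Of the 9 neural miRNAs only miR-219 was (11.1%, beside the same 18.8%), at 4.54, 4.53, 4.65 and 4.19 (4.48 ± 0.20). The leading neuronal miRNA, miR-124, was at 3.20 and miR-9 at 3.46. Whether counts in lists this short differ from the share over all mouse features was not tested. These counts depend on the floor: at the 0.90 quantile of the viral means, 3.38, they were 2 muscle, 5 embryonic stem cell and 4 neural miRNAs, with 269 of all mouse features above it. A mean at the floor gives only an upper bound on the level, and with no detection calls used here it does not show that a miRNA is absent.

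The large imprinted clusters also held few features above the floor, where the share over all mouse features was 18.8%. Of the 39 features of the cluster within Sfmbt2, a placental miRNA cluster, 0 were above the floor and the highest was miR-467f at 3.75. Of the 75 features of the maternally expressed Dlk1-Dio3 cluster 1 was above it, miR-494, at 6.18, 6.68, 7.22 and 6.58 (6.66 ± 0.43). Arrays 3 and 1 were the extremes of miR-494. At the lower floor of 3.38 the counts were 13 Sfmbt2 and 19 Dlk1-Dio3 features, and the count over all mouse features rose as well, as given above. The medians of both clusters, 3.29 and 3.30, were close to the 3.34 of all mouse features.

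**Figure D4:**
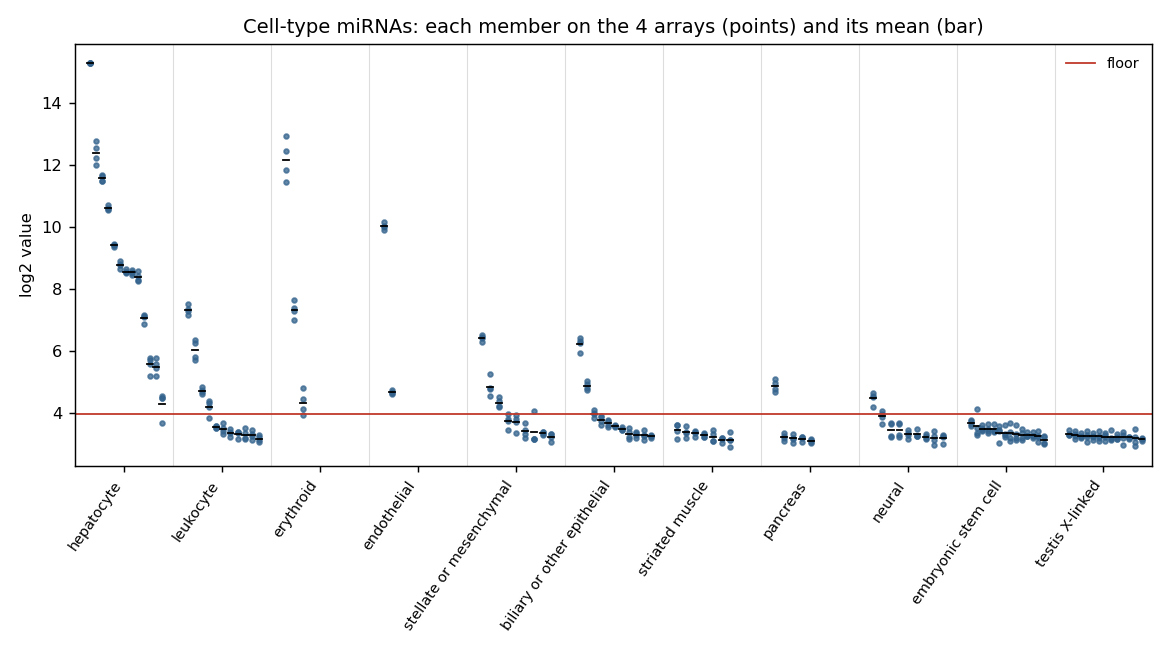
Log2 value of each miRNA of 11 cell-type lists on the 4 WT control arrays (points) with its mean (bar); the red line is the floor at 3.98. All 13 hepatocyte and all 3 erythroid miRNAs have means above the floor, and no striated muscle, embryonic stem cell or testis miRNA does at this floor. Over all mouse features the share is 18.8%.

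The 4 arrays were alike over most features. Over the 611 mouse features the correlation between pairs of arrays ran from 0.984 to 0.995, a description across features that are not independent replicates. Over the features above the floor the median absolute difference between pairs ran from 0.115 to 0.194, with the larger values in pairs that held array 4. The median SD was 0.139 over the 115 features above the floor, 0.171 for the 57 between the floor and 6, 0.120 for the 24 between 6 and 8, 0.0740 for the 19 between 8 and 10 and 0.120 for the 15 at 10 or more. Among the 114 features above the floor that showed any spread, array 4 was the lowest in 53 and array 1 the highest in 40.

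Features with a wide spread were found across the level scale. Of the 115, 14 had an SD over 0.3. They were 6 of the 57 between the floor and 6, 4 of the 24 between 6 and 8, 1 of the 19 between 8 and 10 and 3 of the 15 at 10 or more. The 5 largest belonged to miR-451 at 0.66, miR-689 at 0.52, miR-494 at 0.43, miR-455 at 0.42 and miR-690 at 0.41. miR-689 read 6.47, 7.26, 7.59 and 6.68 on arrays 1 to 4. From highest to lowest the arrays stood in the order 3, 2, 4, 1 for 7 features: miR-451, miR-144, miR-494, miR-689, miR-195, miR-26a and miR-1187. The third erythroid miRNA, miR-486, was also highest on array 3 but lowest on array 4. Other orders held more features, with 13 in the order 1, 2, 3, 4 and 12 in the order 1, 3, 2, 4. Apart from miR-122, whose values were identical, the smallest SDs among the 30 brightest features were those of miR-24, miR-26a and miR-26b, at 0.01, 0.02 and 0.02.

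**Figure D5:**
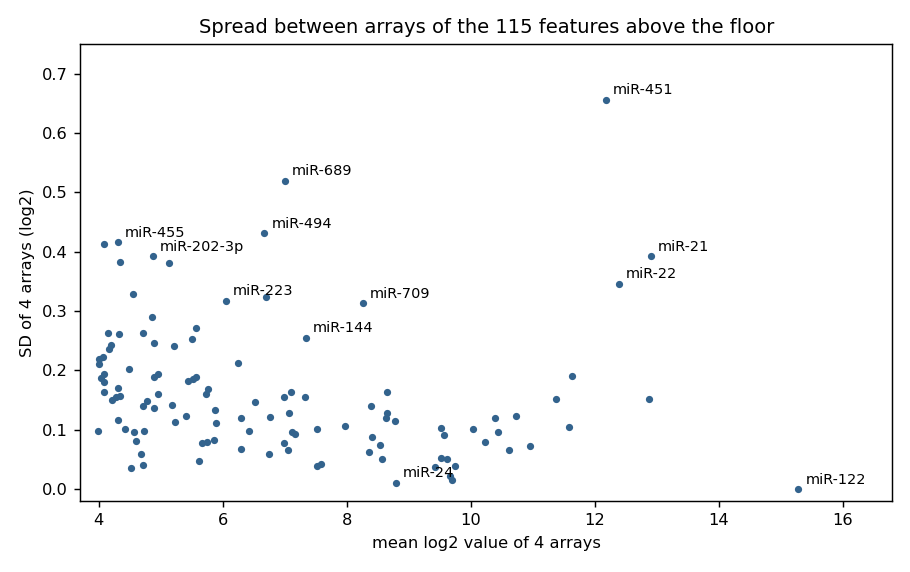
SD of the 4 WT control arrays against the mean log2 value for the 115 mouse features above the floor (points), with named features labelled. miR-451 has the largest SD, 0.66 at a mean of 12.18, and miR-122, with identical values on the 4 arrays, lies at an SD of 0 at the right end.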

How the data were processed

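The deposited log2 values, made by the authors for every miRNA feature on every array, come from single-channel Agilent miRNA arrays hybridised with 100 ng of total liver RNA, per the labels' protocols. The authors' tools were RMA and limma, per the submitters' processing notes. For the versions, background step and filters, no detail is given in the sources used here. No scanner intensities, detection calls or slide positions were used here. Precision is limited by the number of arrays.

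Values were used as deposited. Groups came from the sample titles. Means and SDs were taken over the 4 WT control arrays, and the floor was the 0.95 quantile of the viral feature means. The height over the floor was tested with limma 3.58.1 in R 4.3.3 (intercept only, eBayes with trend, two-sided, threshold 0.05), which was tested on simulated data. Counts, pairs and figures were made with Python 3.11.15, pandas 2.3.3, numpy 2.4.6 and matplotlib 3.10.9. Array names were matched to RefSeq mature names through a hand-written table of arms.

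The members and lists were chosen with earlier results of these data known. Features named by rule were the 30 brightest, the 4 brightest of each family or list, the 8 brightest asterisk features and the 5 largest SDs. The rule also took the 3 nearest the floor on each side and the features above it for which no RefSeq sequence was matched. Other features, such as let-7e, miR-98, miR-802 and miR-145, are given outside this rule. Other floors, call rules, centring, spreads and left-out arrays were tried as alternatives. No group was compared with another.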

Additional observations from a re-analysis of the deposited data

Results flagged for a closer look

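For 6 of the 93 named features above the floor that could be examined, 1 of the 4 arrays stood far from the other three, by a gap that, as a share of the whole range, passed Dixon's critical value for 4 samples. Chance gives such a gap in about 1 in 20 groups. Features given outside the naming rule, such as let-7e and miR-802, were not examined. The gap as a share of the range was 0.92 for miR-15a, where array 2 read 9.67 against 9.46 to 9.48, and 0.913 for miR-24, where array 1 read 8.80 against 8.78. It was 0.93 for miR-140, where array 4 read 5.54 against 5.63 to 5.64. It was 0.893 for miR-195, where array 1 read 5.29 against 5.65 to 5.69. It was 0.924 for miR-455, where array 4 read 3.68 against 4.49 to 4.55, so that only array 4 was below the floor. It was 0.857 for miR-29c*, where array 4 read 4.32 against 3.87 to 3.93 and was the only array above the floor. Array 4 was the far one in 3 of the 6.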

How the results depend on the processing

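No paired analysis was possible because no group was compared with another. Among the recomputed counts and medians, 594 stayed within 1.5 times the count or 1 SD and 29 did not, most of them with another floor. At the 0.90 quantile, a floor of 3.38, the features above it were 269 mouse features, 38 with an asterisk, 5 of the miR-10, miR-99 and miR-100 family, 4 of miR-181, 2 of miR-221 and miR-222, 2 of miR-130 and miR-301 and 2 of miR-34. In the lists they were 7 stellate, 7 epithelial, 2 muscle, 4 neural, 5 embryonic stem cell, 13 Sfmbt2 and 19 Dlk1-Dio3 features. At the highest viral mean, 4.60, they were 3 with an asterisk, 1 of miR-125 and 0 neural, and with a floor from the WT control arrays alone, 3.84, 2 were neural. Requiring all 4 arrays left 1 of miR-125. With the median of the arrays, the leukocyte median was 3.48 and the stellate median 3.77. The limma count of 102 became 148, 81 and 109 under these 3 floors, 103 after centring and 101 with the spread of all 16 arrays. Leaving out 1 array at a time gave 111 to 117 mouse features above the floor, 6 to 7 of them with an asterisk, and at least 98 by limma. The list medians that moved by more than their spread were those of leukocytes, 3.43 to 3.55, the stellate list, 3.64 to 3.71, the pancreas, 3.16 to 3.23, and miR-34, 3.31 to 3.41. The 30 brightest features were shared by each of these settings. Another floor, call rule, spread or centring cannot reorder the means, so only the median and the left-out arrays could have changed this set.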

Other observations

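The viral features were not a uniformly dark background. Of the 39, 2 had a mean above the floor by its construction, and 1 was above it by limma in the WT control arrays. Of the mouse features, 22 lay within 0.5 above the floor and 77 within 0.5 below it. Of the features below the floor by their mean, 20 were above it on at least 1 array, and of the 115 above it, 15 were at or below it on at least 1 array.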
